A study of Mus musculus with 22 samples.

Results

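Kappa light chain variable segments (Igkv) were followed through 3 sorted stages of B cell development in bone marrow of tet-LIN28B mice and their littermate controls. The members were all listed genes whose symbol begins with Igkv and a number. There were 53 of 37669 genes in the large Pro-B table, 109 of 37851 in the large Pre-B table and 136 of 26095 in the small Pre-B table, which together made 140 segments, 46 of them listed at all stages. Poly-A RNA was sequenced from large Pro-B cells (5 tet-LIN28B and 4 control libraries), large Pre-B cells (4 and 3) and small Pre-B cells (3 and 3). tet-LIN28B mice carried a Flag-tagged human LIN28B cDNA under a doxycycline (Dox) inducible promoter in the Col1a locus, together with the rtTA activator in the Rosa26 locus, so that induction was not limited to B cells. The transgene was present on a single allele. Control mice were co-housed littermates that, per the study's methods, were heterozygous for rtTA in the Rosa26 locus. Mice of both genotypes were adult and received Dox chow at 200 mg/kg for 10 days. The marrow, from back limbs and sternum per the sample labels (the study's general methods also name front limbs and hips), had been depleted of CD3+, TER119+ and GR1+ cells. Each library came from a separate mouse within its stage. The large Pro-B and large Pre-B libraries of the same number and genotype came from the same mice. Different mice gave the small Pre-B libraries.

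The mouse kappa locus encodes most antibody light chains. In Pre-B cells the RAG1 and RAG2 recombinase joins a variable segment to a joining segment upstream of the constant exon Igkc. A segment that lies in the same transcriptional orientation as Igkc is joined by deletion of the DNA between them, and a segment in the opposite orientation by inversion. A cell may rearrange the locus again and replace its light chain, and unrearranged segments can also be transcribed from their own promoters as germline transcripts. A read that maps to a variable segment does not by itself tell a rearranged from a germline transcript.

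In the GENCODE annotation of GRCm38, the 140 segments lay on chromosome 6 between 67555497 and 70704177, over 3.15 Mb, with Igkc at 70726435 to 70726966 on the plus strand. Of these, 100 were annotated as variable genes and 40 as pseudogenes, 60 had the orientation of Igkc and 80 the opposite orientation. The number after Igkv gives the family, of which there were 20. The number after the hyphen follows the order along the locus, counted from the Igkc end, though Igkv4-60 lay nearer to Igkc than Igkv4-59. Numbers up to 45 were taken as the proximal zone (46 segments), 46 to 90 as the middle zone (47 segments) and 91 or more as the distal zone (47 segments). The 13 segments of the Igkv3 family were the 13 nearest to Igkc, 22.3 to 228 kb from it, and 12 of them had its orientation. The Igkv4 family was the most numerous, with 33 segments, all in the opposite orientation and 1.03 to 1.97 Mb from Igkc.

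The results below turn mainly on 6 Igkv3 segments whose level was lower in tet-LIN28B small Pre-B cells. The last 75 bases of each GENCODE transcript are shown on the coding strand (GRCm38, plus strand of chromosome 6), with the part after the conserved cysteine codon, the start of the complementarity determining loop that meets antigen, in capitals. They were read for Igkv3-2 at chr6:70698993-70699067, Igkv3-4 at chr6:70672303-70672377, Igkv3-5 at chr6:70663821-70663895, Igkv3-7 at chr6:70607962-70608036, Igkv3-10 at chr6:70573156-70573230 and Igkv3-12 at chr6:70518775-70518849.
Igkv3-2: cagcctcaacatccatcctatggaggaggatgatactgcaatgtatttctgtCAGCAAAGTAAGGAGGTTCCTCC
Igkv3-4: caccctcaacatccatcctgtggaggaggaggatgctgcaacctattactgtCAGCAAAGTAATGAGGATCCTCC
Igkv3-5: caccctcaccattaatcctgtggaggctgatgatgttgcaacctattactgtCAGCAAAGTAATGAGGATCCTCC
Igkv3-7: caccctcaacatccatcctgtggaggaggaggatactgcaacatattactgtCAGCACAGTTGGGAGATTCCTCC
Igkv3-10: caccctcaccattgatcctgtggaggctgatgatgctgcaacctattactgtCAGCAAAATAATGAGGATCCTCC
Igkv3-12: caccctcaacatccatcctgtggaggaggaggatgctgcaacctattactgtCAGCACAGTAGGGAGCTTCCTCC
The 23 capitalised bases were identical in Igkv3-4 and Igkv3-5 and differed among the other 4. Over their last 280 bases, the 8 tested Igkv3 segments were 84.3 to 98.2% identical in pairs, with Igkv3-5 and Igkv3-10 the closest pair.

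For comparison, the same 75 bases are given for 4 segments whose level was higher: the 2 with the largest fold changes among called segments (Igkv4-91 and Igkv15-103), the most used segment of the locus (Igkv1-135) and the one with the smallest adjusted p (Igkv4-57). They were read for Igkv4-91 at chr6:68768555-68768629 and Igkv4-57 at chr6:69575975-69576049 on the minus strand, and Igkv15-103 at chr6:68437851-68437925 and Igkv1-135 at chr6:67610434-67610508 on the plus strand.
Igkv4-91: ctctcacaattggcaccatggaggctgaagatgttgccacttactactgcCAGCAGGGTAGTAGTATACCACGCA
Igkv15-103: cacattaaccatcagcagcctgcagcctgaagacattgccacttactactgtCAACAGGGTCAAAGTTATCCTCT
Igkv4-57: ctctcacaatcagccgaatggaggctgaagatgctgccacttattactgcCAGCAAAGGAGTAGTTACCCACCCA
Igkv1-135: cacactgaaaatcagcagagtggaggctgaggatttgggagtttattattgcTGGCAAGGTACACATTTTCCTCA
None of these 4 capitalised ends was the same as one of the Igkv3 ends above.

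Near-identical segments can share reads, and how a shared read was assigned cannot be seen in the deposited values. Of the 50-base words in the transcripts of Igkv3-2, Igkv3-4, Igkv3-5, Igkv3-7, Igkv3-10 and Igkv3-12, a median of 45.7% also occurred in another segment. No word of any Igkv3 segment occurred in another family, so values of single Igkv3 segments are less certain than the sum over the family. Igkv15-103 shared no such word with any other segment, Igkv4-91 shared 5.18% of its words, Igkv1-135 shared 36.5% and Igkv4-57 shared 49.2%.

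Depth was 13.9 to 23.3 M reads per large Pro-B library and 19.9 to 30.4 M per large Pre-B library. Small Pre-B libraries were deeper, with 32.0 to 51.0 M reads. Lin28b itself, which counts reads of the human cDNA only where they align to the mouse gene, had 57.0 to 232 normalized counts in tet-LIN28B large Pro-B libraries against 4.63 to 10.2 in controls, 41.9 to 175 against 9.92 to 28.8 in large Pre-B libraries, and 81.9 to 230 against 0 in small Pre-B libraries. In small Pre-B cells, the summed level of 14 markers of immature and mature B cells was 124204 to 132989 in tet-LIN28B and 114573 to 122236 in control libraries, none of the 14 being at 0 in all libraries. The 6 erythroid markers summed to 146 to 172 against 47.9 to 97.7. The 7 T cell markers summed to 831 to 1049 against 569 to 815, with the defining marker Cd3e at 0 in all 6 libraries. Nearly all of that sum was Lck, at 822 to 1035 against 560 to 812. The summed plasma cell, pro-B, pre-B and myeloid markers overlapped between the genotypes. The part of these differences in the results below was not tested. In these bulk samples, fewer cells of a type and less RNA per cell cannot be told apart.

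Kappa segment transcripts were scarce at both large stages and abundant in small Pre-B cells, in both genotypes. The stages were deposited as separate tables and were not tested against each other here. As reads relative to library size (RPM), the segments made up 0.0450 to 6.18 RPM in tet-LIN28B and 0.946 to 3.21 RPM in control large Pro-B libraries. In large Pre-B cells they made up 3.62 to 45.1 RPM in tet-LIN28B and 6.51 to 41.5 in control libraries, and in small Pre-B cells 811 to 947 and 722 to 812. The number of segments with at least 1 read was 1 to 20 in tet-LIN28B and 3 to 8 in control large Pro-B libraries, 23 to 51 and 27 to 40 in large Pre-B libraries, and 121 to 129 and 124 to 128 in small Pre-B libraries. These values overlapped between genotypes at each stage, in small Pre-B cells by the lowest tet-LIN28B and the highest control library, as the plot of summed transcripts and detected segments shows.

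**Figure D1:**
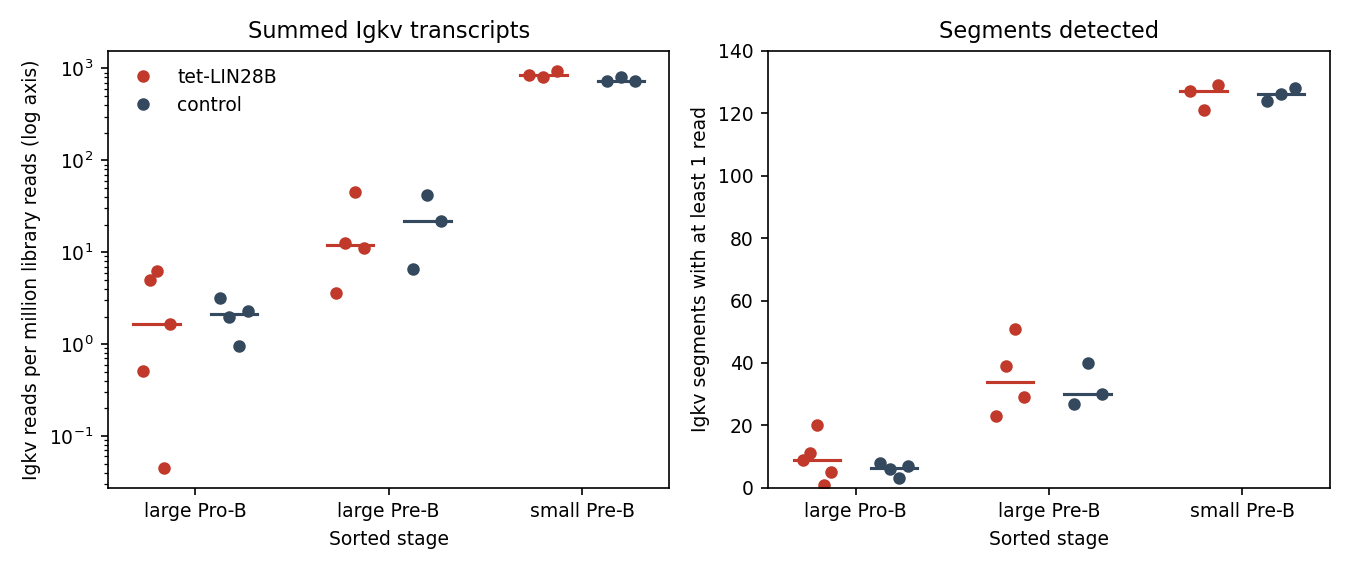
Summed Igkv transcripts in RPM (left, log axis) and number of Igkv segments with at least 1 read (right) by sorted stage. Each point is 1 library, tet-LIN28B in red and control in dark blue, and bars are group medians; small Pre-B libraries had 811 to 947 RPM in tet-LIN28B and 722 to 812 in control, far above both large stages.

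In small Pre-B cells, LIN28B induction came with a lower level of the segments next to Igkc and a higher level of a spread of segments farther away. Of 107 segments that passed the filter on low values, 18 were higher and 7 were lower at an adjusted p under 0.05, which was 16.8% and 6.54% of those tested, against 7.34% and 7.03% of all 14664 genes tested in the same fit (limma). The median log2 fold change of the 107 segments was 0.25, against -0.00 over all genes, and it was positive for 73 and negative for 34. Of the 7 segments that fell, 6 were in the Igkv3 family. Levels were free of overlap between tet-LIN28B and control libraries for 30 segments with higher and 13 with lower levels in tet-LIN28B, or 28.0% and 12.1%, against 17.7% and 16.2% of all genes tested. As shares of the summed Igkv counts, 18 of the 107 segments were higher and 21 were lower in tet-LIN28B without overlap, so that the balance of levels did not hold for usage. With every library rescaled to the same total, 10 segments were higher and 7 lower (829 higher and 1227 lower over all genes, against 1076 and 1031). The count of higher segments was 6 without tet-LIN28B replicate 1, 7 without tet-LIN28B replicate 3, 5 without control replicate 1 and 6 without control replicate 3.

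The other 29 listed segments were too low to test. Of these, 26 were pseudogenes, and none had a group mean above 10.9 normalized counts. They were Igkv3-3, Igkv3-8, Igkv3-11 and Igkv3-12-1 in the Igkv3 family. Igkv3-3 averaged 2.56 normalized counts in tet-LIN28B and 6.88 in control libraries.

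Every tested Igkv3 segment had a lower mean in tet-LIN28B small Pre-B cells, and 6 of the 8 passed the test. Igkv3-7 had 64.8, 71.6 and 140 normalized counts in tet-LIN28B libraries, against 296, 311 and 313 in controls. The 3 control libraries were close together, while tet-LIN28B replicate 3 was the highest of its group and still below every control. Its log2 fold change was -1.81 ± 0.27 (SE, n = 3 and 3, adjusted p = 0.00245), the largest fall among the segments that were called. Igkv3-10 had 71.1, 63.3 and 85.1 normalized counts in tet-LIN28B libraries, against 262, 197 and 229 in controls (log2 fold change -1.64 ± 0.21, adjusted p = 0.00113). Igkv3-5, which shares 51.4% of its 50-base words with other segments and most resembles Igkv3-10, had 70.4, 51.9 and 69.7 against 247, 182 and 128 (-1.48 ± 0.28, adjusted p = 0.00689). For both, the lowest control was above the highest tet-LIN28B library.

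Igkv3-12, the segment of the called group farthest from Igkc, had 152, 116 and 112 normalized counts in tet-LIN28B libraries, against 427, 377 and 220 in controls. Igkv3-4 had 71.8, 63.3 and 113 in tet-LIN28B libraries, against 227, 205 and 187 in controls. Their log2 fold changes were -1.38 ± 0.25 (adjusted p = 0.00652) and -1.35 ± 0.25 (adjusted p = 0.00635), and neither pair of groups overlapped. Igkv3-2, the highest of the family in these libraries, had 271, 196 and 323 normalized counts in tet-LIN28B, against 496, 582 and 426 in controls (-0.94 ± 0.20, adjusted p = 0.0118). The call of Igkv3-2 was lost without control replicate 2 (adjusted p = 0.0503), whereas the calls of the other 5 stood in all 6 fits that left out a library.

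The remaining Igkv3 segments did not pass the test. Igkv3-1, the segment nearest to Igkc, had 69.0, 55.0 and 96.8 normalized counts in tet-LIN28B, against 90.3, 146 and 91.1 in controls (log2 fold change -0.56 ± 0.30, adjusted p = 0.240). Igkv3-9 was low in all libraries, at 13.4, 4.15 and 10.9 against 13.0, 16.2 and 12.2 (-0.62 ± 0.56, adjusted p = 0.512). For both segments tet-LIN28B and control libraries overlapped.

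**Figure D2:**
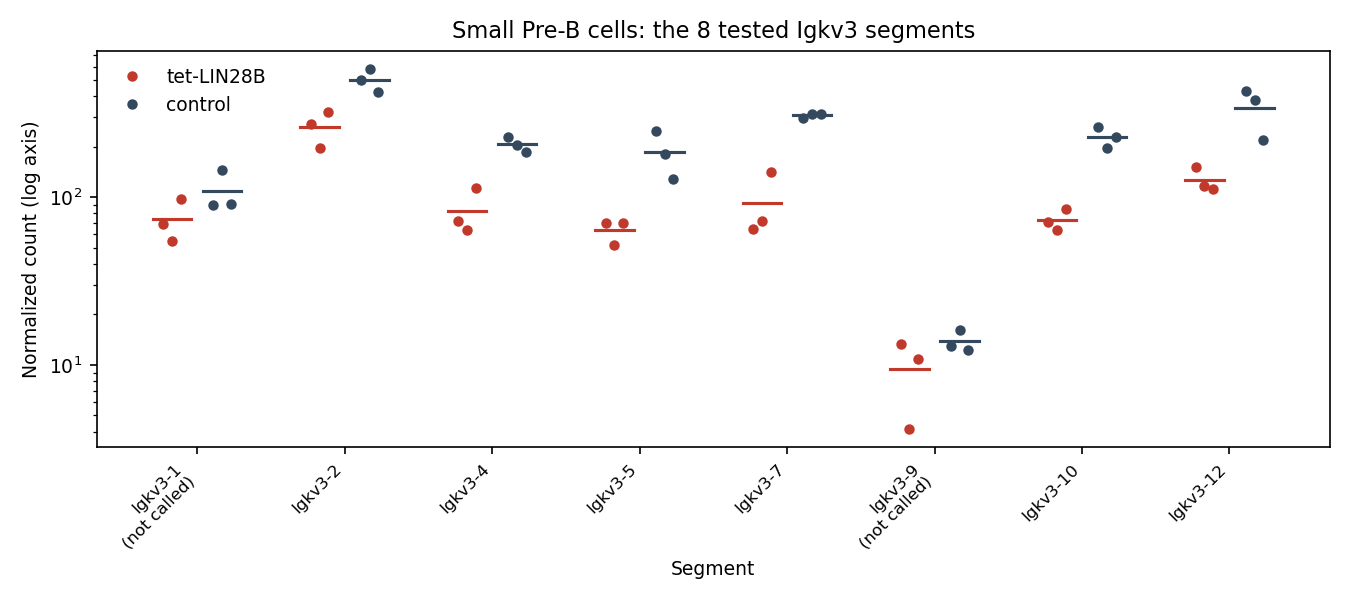
Normalized counts (log axis) of the 8 tested Igkv3 segments in small Pre-B cells. Points are libraries, 3 tet-LIN28B (red, left of each pair) and 3 control (dark blue), and bars are means; for the 6 called segments every tet-LIN28B library lies below every control library, as for Igkv3-7 with 64.8 to 140 against 296 to 313.

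Summed over its 12 listed members, the Igkv3 family made up 2.59, 2.15 and 2.91% of all Igkv normalized counts in tet-LIN28B small Pre-B libraries, against 8.13, 7.22 and 6.45% in controls. The mean share was 2.55 ± 0.39% in tet-LIN28B and 7.26 ± 0.84% in controls (SD, n = 3 each), a difference of -4.71 percentage points and 0.351 of the control value. No tet-LIN28B library came near the lowest control. The share is a sum over members and was not tested.

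No segment just beyond Igkv3 was called, and whether these segments differed from Igkv3 was not tested. The next along the locus, Igkv6-13, Igkv6-14 and Igkv6-15 at 268 to 319 kb from Igkc, had log2 fold changes of -0.48 ± 0.34, -0.19 ± 0.35 and -0.15 ± 0.12, and none passed the test. Igkv8-16, at 339 kb, had 1293, 1230 and 1326 normalized counts in tet-LIN28B, against 1014, 1150 and 1015 in controls (0.28 ± 0.09, adjusted p = 0.0705). Igkv6-17 and Igkv8-18, which have the orientation of Igkc as the Igkv3 genes do, had log2 fold changes of -0.33 ± 0.19 and -0.66 ± 0.34 (adjusted p = 0.287 and 0.236). Igkv6-25, in that orientation as well, had 0.19 ± 0.18. Igkv8-24 was lower without overlap, at 283, 290.4 and 278 normalized counts in tet-LIN28B against 466, 373 and 296 in controls, but did not pass the test (-0.39 ± 0.17, adjusted p = 0.168). Igkv8-26, too low to test, had 5.63, 2.07 and 1.81 in tet-LIN28B against 8.38, 10.8 and 8.45 in controls. The plot of fold change against distance shows the called Igkv3 segments as a group at the Igkc end.

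**Figure D3:**
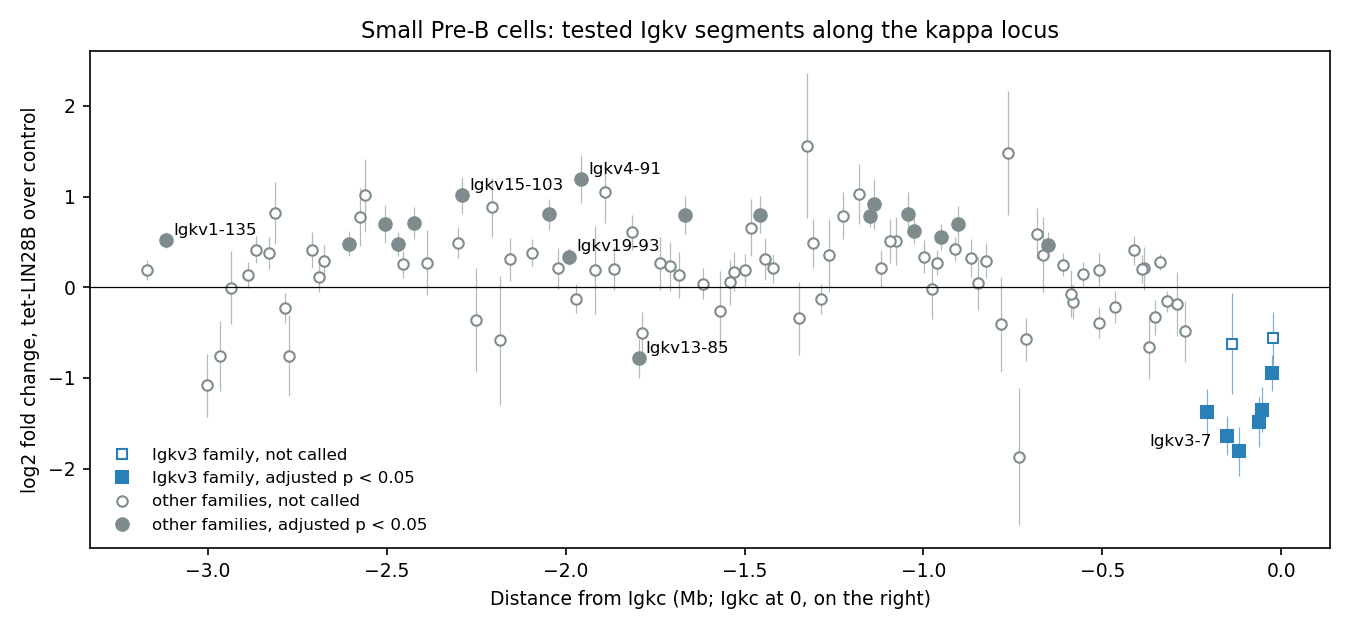
Log2 fold change of tet-LIN28B over control in small Pre-B cells for the 107 tested Igkv segments (vertical axis, bars are the SE) against distance from Igkc in Mb (horizontal axis, Igkc at the right). Filled symbols have an adjusted p under 0.05 and blue squares are the Igkv3 family; the 6 called Igkv3 segments lie between -1.81 and -0.94, and 18 segments of other families are called above 0.

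Igkv13-85, in the middle zone 1.80 Mb from Igkc, was the only called segment outside Igkv3 to fall. It had 99.97, 106.8 and 138 normalized counts in tet-LIN28B libraries, against 201, 231 and 162 in controls (log2 fold change -0.78 ± 0.21, adjusted p = 0.0363). The libraries did not overlap, but the call was lost in 4 of the 6 fits that left out a library. Its neighbour Igkv13-84, the other tested member of the family, had 127, 90.2 and 149 against 176, 184 and 151 and did not pass the test (-0.50 ± 0.23, adjusted p = 0.176). The Igkv13 family as a whole took 0.776, 0.715 and 0.912% of Igkv counts in tet-LIN28B, against 1.48, 1.501 and 1.282% in controls.

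The 18 segments that rose came from 9 families, 7 of them from Igkv4, and 9 lay in the distal, 6 in the middle and 3 in the proximal zone. Their log2 fold changes were between 0.34 and 1.19, smaller in size than those of most called Igkv3 segments. Igkv4-91 had the largest of the called ones. It is a segment known from phosphatidylcholine-binding B-1a cells, the self-renewing B cells that arise mainly early in life. It had 323, 195 and 272 normalized counts in tet-LIN28B libraries, against 135, 134 and 78.0 in controls. All tet-LIN28B libraries were above all controls, at a log2 fold change of 1.19 ± 0.27 (adjusted p = 0.0155), and the call was lost without tet-LIN28B replicate 1 (adjusted p = 0.0641). Igkv14-126, the other segment chosen for its use by such B-1a cells, had 249, 271 and 338 against 250, 202 and 205. Its groups overlapped and it did not pass the test (0.38 ± 0.17, adjusted p = 0.184).

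Igkv15-103, the only variable gene of its family, had 227, 199 and 256 normalized counts in tet-LIN28B, against 137, 98.4 and 102 in controls (log2 fold change 1.02 ± 0.20, adjusted p = 0.00969). Igkv10-95 had 327, 269 and 378 in tet-LIN28B, against 194, 187 and 171 in controls (0.81 ± 0.17, adjusted p = 0.0125). Both were called in all 6 fits that left out a library. The same held for Igkv4-57, with 498, 553 and 541 in tet-LIN28B against 309, 293 and 321 in controls (0.78 ± 0.12, adjusted p = 0.00287), and for Igkv1-135 below.

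Other Igkv4 segments rose by similar amounts. Igkv4-51 had 228, 179 and 231 normalized counts in tet-LIN28B, against 92.1, 164 and 114 in controls (log2 fold change 0.81 ± 0.24, adjusted p = 0.0464), and Igkv4-70 had 161, 167 and 169 against 81.9, 111 and 93.0 (0.80 ± 0.20, adjusted p = 0.0258). Igkv4-56, annotated as a pseudogene and so unable to give a light chain, had 77.4, 85.0 and 92.3 against 34.4, 48.7 and 51.7 (0.92 ± 0.27, adjusted p = 0.0488). Of the 6 fits that left out a library, the call was lost in 4 for Igkv4-51, in 5 for Igkv4-70 and in 6 for Igkv4-56. The calls of Igkv4-51 and Igkv4-56 were also lost in edgeR (adjusted p = 0.0546 and 0.0595). Of the 31 tested Igkv4 segments, 27 had a positive fold change and 7 were called, and their median log2 fold change was 0.35.

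**Figure D4:**
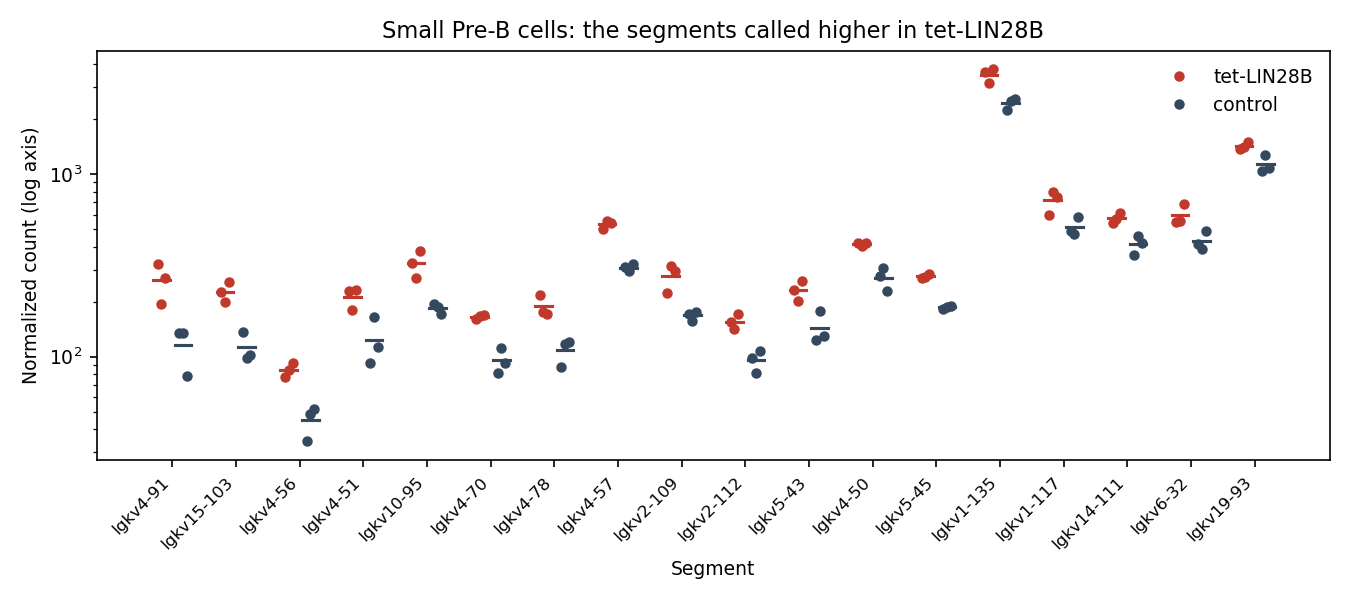
Normalized counts (log axis) of the 18 Igkv segments called higher in tet-LIN28B small Pre-B cells, ordered by fold change. Points are libraries, 3 tet-LIN28B (red, left of each pair) and 3 control (dark blue), and bars are means; every tet-LIN28B library lies above every control library for each of the 18, as for Igkv15-103 with 199 to 256 against 98.4 to 137.

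Several segments with large fold changes did not pass the test. Igkv4-62 (21.7 normalized counts on average in tet-LIN28B against 8.36 in controls), Igkv5-37 (26.0 against 10.6) and Igkv18-36 (7.43 against 20.6) were low and varied between libraries, with SEs of 0.68 to 0.80 on the log2 scale. Of these, Igkv18-36 was lower without overlap. Igkv12-89 (251 against 132) and Igkv4-57-1 (113 against 52.2) had more counts and were higher without overlap. Their log2 fold changes were 1.05 ± 0.34 and 1.03 ± 0.33 (limma, adjusted p = 0.0665 and 0.0645). Igkv1-133 is a near copy of Igkv1-135, 96.1% identical over 280 bases. It averaged 86.3 in tet-LIN28B and 173 in controls (log2 fold change -1.08 ± 0.35, adjusted p = 0.0645), without overlap and in the opposite direction to Igkv1-135.

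The 5 most used segments by counts kept the same order in both genotypes, while others moved in rank. Igkv3-2 ranked 40 in tet-LIN28B and 14 in controls, Igkv3-7 ranked 77 and 29, and Igkv4-91 ranked 39 and 69. Transcripts differed in length (200 to 501 bases), so usage was also computed per length. Igkv1-135, Igkv19-93 and Igkv8-16 were the 3 most used segments by counts in both genotypes and also per length, where they took 9.55, 4.72 and 4.12% of the length-adjusted total. Of the 10 most used segments by counts in each genotype, 6 were shared. The 10 segments most used over both genotypes took 36.3% of Igkv counts in tet-LIN28B and 32.7% in controls. Of these 10, 3 were called higher.

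Igkv1-135, in the distal zone, had 3645, 3136 and 3746 normalized counts in tet-LIN28B small Pre-B libraries, against 2233, 2506 and 2589 in controls. Its log2 fold change was 0.52 ± 0.09 (adjusted p = 0.00499), and its share of Igkv counts was 11.9, 10.8 and 11.3% against 8.75, 8.92 and 10.3%. Neither level nor share overlapped. Igkv19-93 had 1377, 1402 and 1490 against 1045, 1265 and 1077 (0.34 ± 0.10, adjusted p = 0.0442), but its shares of 4.50, 4.84 and 4.50% against 4.10, 4.50 and 4.30% overlapped. Igkv1-117 had 601, 801 and 751 against 490, 468 and 580 (0.48 ± 0.14, adjusted p = 0.0458), again with overlapping shares. The calls of Igkv19-93 and Igkv1-117 were lost in 5 of the 6 fits that left out a library and after rescaling to the same total (adjusted p = 0.0716 and 0.0649).

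The other 7 of the 10 most used segments did not pass the test. They were Igkv8-16, given above, Igkv2-137 (log2 fold change 0.19 ± 0.11), Igkv17-127 (0.41 ± 0.15), Igkv8-30 (0.25 ± 0.12), Igkv12-44 (0.42 ± 0.13), Igkv8-21 (0.41 ± 0.16) and Igkv9-120 (0.29 ± 0.18), with adjusted p between 0.0632 and 0.307. Igkv12-44 came closest, with 718, 676 and 622 normalized counts in tet-LIN28B against 469, 596 and 451 in controls.

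Shares by family and zone are given as descriptions, since a fall in 1 family raises the shares of the others. The Igkv4 family took 21.1, 19.1 and 18.5% of Igkv counts in tet-LIN28B small Pre-B libraries, against 17.1, 18.2 and 17.1% in controls. Igkv6 took 7.72, 8.56 and 8.11% against 9.89, 9.17 and 9.34%. Both families were free of overlap, in opposite directions, as were Igkv5, Igkv10, Igkv12, Igkv14 and Igkv15, which were higher in tet-LIN28B, and Igkv13 and Igkv18, which were lower. Igkv1 (17.1 ± 0.37% against 15.4 ± 1.39%, SD, n = 3 each) and Igkv8 (13.9 ± 0.67% against 14.5 ± 0.75%) overlapped between genotypes.

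The proximal zone took 29.9, 31.4 and 30.6% of Igkv counts in tet-LIN28B libraries, against 38.6, 37.1 and 35.2% in controls. The distal zone took 46.003, 46.4 and 47.4% against 41.3, 41.1 and 43.4%, and the middle zone 24.1, 22.2 and 21.9% against 20.2, 21.8 and 21.4%. Proximal and distal shares thus differed by -6.30 and 4.66 percentage points. With the Igkv3 family left out of the sum, the proximal zone took 28.1, 29.9 and 28.5% against 33.2, 32.2 and 30.7%, and the distal zone 47.2, 47.4 and 48.9% against 44.9, 44.3 and 46.4%. The differences were then -3.18 and 2.60 percentage points, and neither zone showed overlap. The share of all segments in the orientation of Igkc overlapped, at 42.6 ± 1.30% in tet-LIN28B and 43.8 ± 0.77% in controls, but its zones moved in opposite directions. Proximal segments of that orientation took 4.29, 3.78 and 4.70% in tet-LIN28B, against 10.5, 9.63 and 8.58% in controls, and distal ones 37.2, 37.6 and 38.9% against 32.8, 32.6 and 35.2%. Of the 16 proximal segments of that orientation, 12 were in the Igkv3 family, so the proximal fall is not separate from that of the family. Proximal segments in the opposite orientation overlapped, at 25.6, 27.6 and 25.9% in tet-LIN28B and 28.1, 27.5 and 26.6% in controls. Pseudogenes took 3.11 ± 0.11% and 3.16 ± 0.18%.

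**Figure D5:**
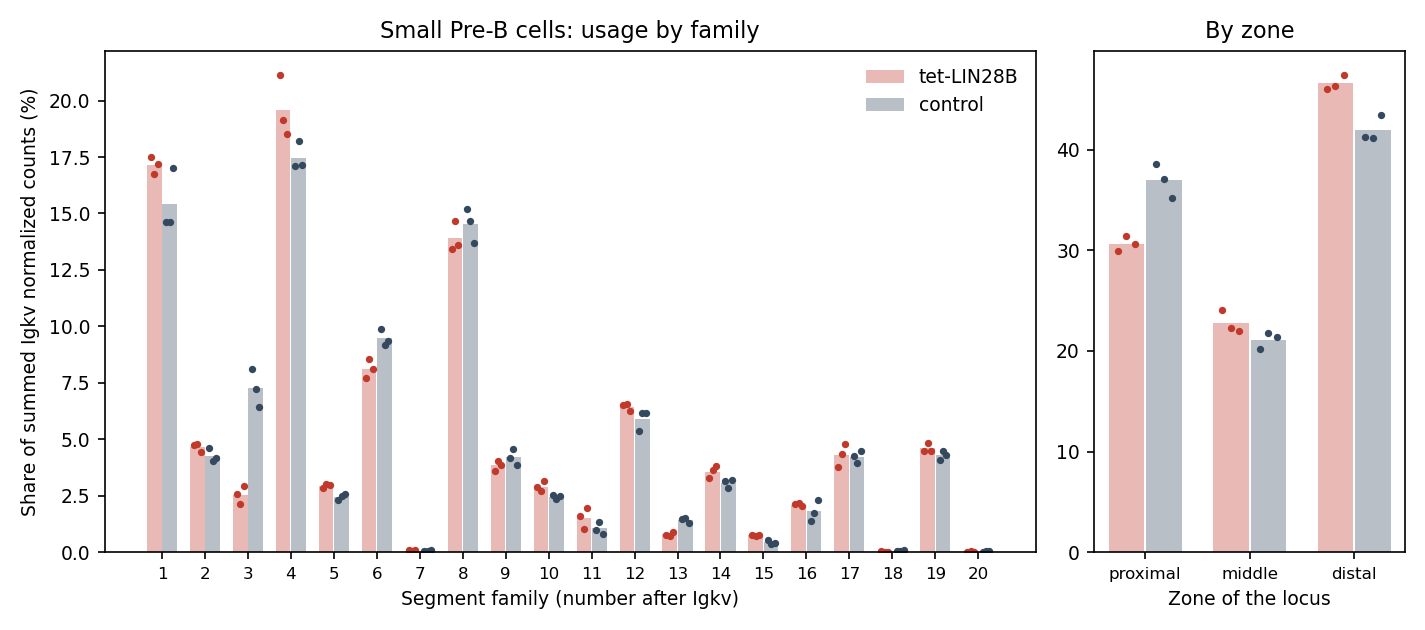
Share of the summed Igkv normalized counts by segment family (left) and by zone of the locus (right) in small Pre-B cells, in percent. Bars are means of 3 tet-LIN28B (red, left of each pair) and 3 control (dark blue) libraries and points are libraries; family 3 took 2.15 to 2.91% against 6.45 to 8.13%, and the proximal zone 29.9 to 31.4% against 35.2 to 38.6%.

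Usage in small Pre-B cells was spread over many segments. The effective number of segments, the exponential of the Shannon entropy of the shares, was 62.6, 62.3 and 63.8 in tet-LIN28B and 68.4, 69.4 and 66.5 in controls, without overlap. Across the 107 tested segments, log2 levels correlated between libraries with Pearson's r of 0.938 to 0.952 for the 6 pairs within a genotype and 0.866 to 0.896 for the 9 pairs between genotypes. This is a description across segments, which share libraries and are not independent replicates. The summed Igkv level was 30578, 28994 and 33131 normalized counts in tet-LIN28B, against 25516, 28094 and 25050 in controls. On this scale it was 1.18-fold higher on average and free of overlap. As RPM it overlapped, at 811 in tet-LIN28B replicate 2 and 812 in control replicate 2.

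Igkc, the constant exon to which every rearranged kappa segment is spliced, was also higher in tet-LIN28B small Pre-B cells. It had 81686, 75047 and 82858 normalized counts against 61750, 68183 and 64665 in controls (log2 fold change 0.30 ± 0.07, adjusted p = 0.0139). The call was lost without control replicate 1 (adjusted p = 0.0617) and without control replicate 3 (0.0571). The ratio of summed Igkv to Igkc counts overlapped, at 0.374, 0.386 and 0.400 in tet-LIN28B and 0.413, 0.412 and 0.387 in controls. Rag2, a subunit of the recombinase, had 7809, 7585 and 7300 against 8339, 9005 and 8997 (-0.21 ± 0.06, adjusted p = 0.0449), a call that was lost in all 6 fits that left out a library. Its partner Rag1 had 9691, 14278 and 8960 against 16598, 13518 and 12910 and did not pass the test (-0.41 ± 0.16, adjusted p = 0.114).

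A list of 42 regulators of kappa transcription, accessibility and rearrangement had 6 higher and 5 lower members in small Pre-B cells, where 7.34% and 7.03% of all genes tested were called, and its median log2 fold change was 0.04. Id3, an inhibitor of the E proteins that activate the kappa enhancers, had 8908, 7567 and 7946 normalized counts in tet-LIN28B against 2684, 2687 and 2814 in controls (log2 fold change 1.57 ± 0.07, adjusted p = 6.69e-06). Pou2f2, which encodes the octamer-binding factor OCT2, had 4159, 3649 and 3794 against 1990, 2176 and 1939 (0.93 ± 0.08, adjusted p = 0.000136). Spi1, which encodes PU.1, rose by less (0.51 ± 0.06, adjusted p = 0.000880). Ebf1, a factor that specifies the B lineage, had 35223, 37768 and 39064 against 49465, 47731 and 45819 (-0.35 ± 0.06, adjusted p = 0.00538). Irf4, which activates kappa enhancers, and Ikzf1, which encodes IKAROS, also fell (-0.39 ± 0.11, adjusted p = 0.0363, and -0.35 ± 0.07, adjusted p = 0.00881) and were picked after their values were seen.

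In large Pre-B cells, segments were carried by a few libraries and no genotype effect was detected at this depth. Of 109 listed segments, 26 had no read in any library, 25 had reads in 1 library alone and 4 had reads in all 7. The summed level was 60.9, 219, 774 and 177 normalized counts in tet-LIN28B, against 112, 671 and 296 in controls. Only 6 segments passed the filter, and none was called (limma, against 0.0424% higher and 0.0141% lower of 14155 genes), with none at an unadjusted p under 0.05. None of the 6 was free of overlap (3.59% and 2.87% of all genes tested were, higher and lower). Without the filter, none of 83 segments was called (limma, 2 at an unadjusted p under 0.05), and the same was true of edgeR (0 of the 6 at an unadjusted p under 0.05) and of DESeq2 (8 of 78).

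Igkv10-96 had the smallest adjusted p of the 6. It had 9.48, 13.2, 19.0 and 19.2 normalized counts in tet-LIN28B large Pre-B libraries, against 0, 16.7 and 5.12 in controls (log2 fold change 1.72 ± 1.01, adjusted p = 0.754). Igkv2-137 had 0.790, 1.73, 53.5 and 0 against 0, 73.1 and 11.5 (-1.27 ± 1.61, adjusted p = 0.873). In each genotype a single library held most of its reads. Igkv14-111 (1.08 ± 1.46) and Igkv3-4 (0.73 ± 1.71) had errors larger than their fold changes, and Igkv1-135 (-0.09 ± 1.16) and Igkv9-124 (-0.02 ± 1.07) were near 0.

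The most used segment of each large Pre-B library differed from mouse to mouse. It was Igkv10-96, Igkv19-93, Igkv1-117 and Igkv1-135 in tet-LIN28B replicates 1 to 4, and Igkv6-32, Igkv8-19 and Igkv4-61 in control replicates 1 to 3, with 12.9 to 25.3% of the Igkv reads in tet-LIN28B and 14.3 to 16.5% in controls. In small Pre-B cells, by contrast, Igkv1-135 led in all 6 libraries. Markers of plasma cells, which carry rearranged kappa genes, varied widely between the large Pre-B libraries. The 13 markers, none at 0 in all libraries, summed to 20109 to 40422 normalized counts in tet-LIN28B and 20336 to 56861 in controls. Among them, Jchain, which encodes the joining chain of secreted antibody, was at 485 to 2618 in tet-LIN28B and 649 to 3783 in controls, and Igha at 1886 to 7027 and 4789 to 23464. In large Pro-B libraries the list summed to 14762 to 16318 in tet-LIN28B and 11446 to 15383 in controls, with Jchain at 0 to 278 and 38.4 to 142. In small Pre-B libraries the list summed to 18861 to 21578 in tet-LIN28B and 21453 to 23240 in controls. There Jchain was at most 13.4 in tet-LIN28B and 22.5 in controls, while other markers of the list were high. Slamf7 averaged 10509 in tet-LIN28B and 9158 in controls, Xbp1 6987 and 5499, and Sdc1 1988.5 and 6444. The part of plasma cell RNA in the Igkv values of the large stages was not tested. Igkv1-117 had 165 of 896 Igkv reads in tet-LIN28B replicate 3 (18.4%, exact 95% interval 15.9 to 21.1%, counting error only), 0, 1 and 1 reads in the other tet-LIN28B libraries, and 0, 40 and 0 reads in controls. Igkv4-91 had 80.3 normalized counts in tet-LIN28B replicate 3 and at most 0.711 in the other tet-LIN28B libraries, and 27.1 in control replicate 2 and 0 in the other controls. The Igkv3 family took 0, 14.7, 0.558 and 24.1% of Igkv counts in tet-LIN28B, against 0.633, 3.77 and 12.1% in controls, without the order seen in small Pre-B cells.

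In large Pro-B cells, where the kappa locus is largely unrearranged, 404 Igkv reads were counted in all 9 libraries together. The summed level was 9.36, 88.9, 101, 0.915 and 28.8 normalized counts in tet-LIN28B, against 57.6, 35.5, 16.9 and 41.4 in controls, and the genotypes overlapped. Of 53 listed segments, 10 had no read, 23 had reads in 1 library alone and none had reads in all 9. No segment passed the filter, so none entered the count of genes free of overlap between genotypes (0.697% higher and 0.602% lower of all genes tested). Without it, none of 43 segments was called (limma, 0 at an unadjusted p under 0.05; DESeq2, 0 of 38), and with it no gene of the table was called either (limma, 0% higher and 0% lower of 13776, 394 at an unadjusted p under 0.05).

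In several large Pro-B libraries a single segment gave many of the few reads. Igkv8-30 gave 42 of 51 Igkv reads in control replicate 1 (82.4%, exact 95% interval 69.1 to 91.6%), Igkv4-74 gave 42 of 108 in tet-LIN28B replicate 2, and Igkv5-43 gave 40 of 105 in tet-LIN28B replicate 3. Reads of PCR-amplified libraries without molecular identifiers are not independent molecules, so such intervals cover counting error only. In the large Pre-B libraries of the same mice these 3 segments had no read, which allowed shares of up to 1.90, 0.789 and 0.335% of their Igkv reads. In the other 4 mice sequenced at both stages, the leading Pro-B segment was also found in large Pre-B cells. Igkv4-61 led both the large Pro-B library (12 of 22 reads) and the large Pre-B library (66 of 463) of control replicate 3. Igkv10-96 had 2 reads, level with other segments, and then led with 12 of 77 in tet-LIN28B replicate 1, and had 21 and 29 reads in control replicate 2. Igkv10-94 had 1 and 6 reads in tet-LIN28B replicate 4. Among all 7 large Pre-B libraries, Igkv10-96 had reads in 6, Igkv4-61 in 4 and Igkv10-94 in 2. Whether a segment was shared within a mouse more than between mice was not tested.

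Igkc, Rag1 and Rag2 did not pass the test at either large stage. Igkc averaged 259 ± 198 normalized counts in tet-LIN28B and 261 ± 38.9 in control large Pro-B libraries (SD, n = 5 and 4), and 3013 ± 1793 and 3401 ± 2087 in large Pre-B libraries (n = 4 and 3). Rag1 in large Pre-B cells had 518, 466, 395 and 370 in tet-LIN28B against 225, 293 and 193 in controls, without overlap (log2 fold change 0.89 ± 0.25, adjusted p = 0.528). None of the 42 regulators was called at the large stages (limma), with 4 at an unadjusted p under 0.05 in the Pro-B and 9 in the large Pre-B fit. Over all genes tested, 394 of 13776 and 930 of 14155 were under that p, and 0% and 0.0424% were called higher and 0% and 0.0141% lower.

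Whether the genotype effect on a segment differed between stages could be tested for few of them. No segment passed the filter at all 3 stages, so the planned comparison held none. A wider set, chosen after the data were seen, held the 12262 genes that passed in both Pre-B tables and were listed in the large Pro-B table. In it, 5 segments could be compared and none was called (limma, 0.0163% of all genes, none of the 5 at an unadjusted p under 0.05). Igkv3-4 also passed in both Pre-B tables but was not listed in the large Pro-B table, so it was not compared. The differences between the small Pre-B and large Pre-B log2 fold changes were 1.59 ± 1.79 for Igkv2-137, -1.34 ± 1.64 for Igkv10-96, -0.60 ± 1.33 for Igkv14-111, 0.64 ± 1.63 for Igkv1-135 and -0.20 ± 1.18 for Igkv9-124. For the Igkv3 family the difference between stages was not tested.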

How the data were processed

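The submitters' processing notes for these libraries name mm10, STAR 2.7.1, RSEM 1.28 and DESeq2 without their roles. The signal the authors deposited, normalized counts (gene counts divided by a factor per library), gave whole reads for 100% of values under 1000 reads (tolerance 0.1). RSEM estimates need not be whole, and whether counts were rounded before normalization was not stated. The sources used here do not give how reads shared by near-identical segments were assigned. The authors' fold changes and p-values were not used, and the tables held 0 columns of other samples.

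Each stage was fitted with limma 3.58.1 in R 4.3.3 (lmFit, eBayes with trend) on the log2 scale with a pseudocount of 1, keeping genes that reached 10 normalized counts in a number of libraries equal to the smaller group, with Benjamini-Hochberg adjustment over all genes and a threshold of 0.05. Fold changes on this scale understate changes of low genes. edgeR 4.0.16 and DESeq2 1.42.0 were run on the recovered reads. Positions and sequences came from GENCODE (GRCm38). The fit was tested on simulated data.

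Named segments were the 10 with the highest share in small Pre-B cells, up to 6 called higher and 6 lower per stage (the 4 with the smallest adjusted p where fewer than 3 were called), Igkv4-91 and Igkv14-126, and Igkc, Rag1, Rag2 and up to 4 called regulators; other segments were named after their values were seen. Members and lists were chosen with earlier results of these data known. Within a stage, each library came from a different mouse, so replicate numbers were not used to pair libraries.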

Additional observations from a re-analysis of the deposited data

Results flagged for a closer look

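Among the 25 groups of 4 or 5 libraries tested, 4 values stood far from the others of their group by Dixon's test, all of them in single segments. Chance flags about 1 in 20 groups. In tet-LIN28B large Pre-B cells, replicate 3 had 80.3 normalized counts of Igkv4-91, against 0 to 0.711 in the other 3 libraries, and 53.5 of Igkv2-137, against 0 to 1.73. In large Pro-B cells, Igkv4-91 had 0.959 in tet-LIN28B replicate 3 and 1.13 in control replicate 1, which is 1 read each, and 0 in all other libraries. Where every other library of a group is at 0, any single read is flagged, so these flags of Igkv4-91 in large Pro-B cells carry no information.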

How the results depend on the processing

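In small Pre-B cells, the count of segments called higher was 18 and became 11 without a filter on low values and 10 after rescaling each library to the same total. Leaving out a library gave 5 to 14 higher and 5 to 7 lower segments, and 9 of the 25 calls (4 higher and 5 lower) stood in all 6 such fits. edgeR called 21 and DESeq2 34 segments, including 21 and 25 of the 25. Replicate numbers marked different mice and their libraries did not deviate together (correlations of -0.11 to 0.02 in small Pre-B cells); with the replicate block 20 segments were called, 17 of them among the 25. Without a library, the Igkv3 share difference in small Pre-B cells was -5.12 to -4.28 percentage points, the proximal -7.18 to -5.49 and the distal 4.24 to 5.41. Leaving the Igkv3 family out of the sum, added after seeing the data, changed the proximal difference to -3.18 and the distal one to 2.60. In large Pre-B cells, keeping only the 6 segments that passed the filter turned the proximal difference to 9.74 and the distal one to -9.74 percentage points. The log2 ratio of summed Igkv levels ranged from 0.18 to 0.29 in small Pre-B, -1.24 to 0.59 in large Pre-B and -0.24 to 0.59 in large Pro-B cells without a library, so no direction can be given for the large stages, where 404 and 3389 Igkv reads in all limited every value. No segment was tested in large Pro-B cells under the settings that kept the filter.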
